A study of Homo sapiens with 12 samples.

Results

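The 6 genes described here control ferroptosis, a form of cell death driven by iron and lipid peroxides that has been proposed as a route by which sorafenib kills liver tumour cells. SLC7A11, GPX4 and AIFM2 protect against it, and ACSL4, LPCAT3 and NCOA4 promote it. They were taken as a named set, chosen with earlier results of these data known. All 6 were found among 35810 genes after transcripts were summed per gene, and all 6 passed the filter on low counts that left 12821 genes for testing. The RNA-seq libraries, of polyadenylated RNA, fall into 4 groups of 3 and come from HepG2 cells, an established line from a human liver tumour. Wild-type cells received either DMSO at 0.1% v/v, the vehicle, or sorafenib, a multikinase inhibitor used against liver cancer, at 5 µM for 48 h. Cells in which ARID1B had been disrupted with CRISPR/Cas9 (ARID1B-KO) received the same pair of treatments. ARID1B belongs to the BAF (SWI/SNF) complexes, which remodel chromatin. The labels do not say from how many edited clones the knockout libraries came, so a property of a clone and an effect of the knockout cannot be told apart. They also do not say what separates the 3 replicates beyond calling them biological, and p-values measure the spread between these libraries.

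In ferroptosis, iron catalyses the peroxidation of polyunsaturated fatty acids held in membrane phospholipids, and the cell dies when peroxides form faster than they are removed. ACSL4 joins arachidonic acid and related polyunsaturated fatty acids to coenzyme A, LPCAT3 places them in phospholipids, and NCOA4 carries ferritin to the lysosome, where its iron is released. On the protective side, SLC7A11 is the transporter subunit of system xc-, which imports cystine for glutathione synthesis, GPX4 is the selenoenzyme that reduces phospholipid hydroperoxides with glutathione, and AIFM2 (FSP1) regenerates reduced coenzyme Q10 at membranes independently of glutathione.

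Libraries held 19739582 to 29398257 estimated counts. ARID1B itself stood at 58.4, 62.0 and 66.7 CPM (counts scaled to the library size, itself adjusted by the TMM method) in wild-type cells given DMSO and at 26.4, 27.97 and 27.5 CPM in ARID1B-KO cells given DMSO. No ARID1B-KO library reached the wild-type range, and the transcript remained at 0.438 times its wild-type level (log2 fold change -1.19 ± 0.11 SE, adjusted p = 7.44e-06). Mitochondrially encoded genes took 6.75% to 12.3% of counts, and ALB (albumin) took 3.26% to 9.63%. All 9 hepatocyte and HepG2 markers were tested, and their summed level was 80520 to 90120 CPM in wild-type cells in DMSO and 99700 to 108900 CPM in sorafenib. ALB is 1 of these 9 and weighs heavily in the sum. In ARID1B-KO cells the same sum was 90940 to 109700 CPM in DMSO and 117600 to 183700 CPM in sorafenib. Of the markers of other cell types, 2 of 4 biliary, 2 of 5 blood cell, 2 of 5 mesenchymal and 2 of 4 endothelial genes passed the filter. Summed markers of other cell types were at 199 to 274 CPM (4 biliary genes) and 28.2 to 54.5 CPM (5 blood cell genes) over all libraries. In ARID1B-KO cells the biliary sum was 199 to 230 CPM in DMSO and 248 to 274 CPM in sorafenib, without overlap. In wild-type cells it overlapped between treatments. The blood cell sum in DMSO was 28.2 to 34.6 CPM in wild-type and 39.9 to 54.5 CPM in ARID1B-KO cells, without overlap. The 5 mesenchymal markers summed to 39.6 to 47.9 CPM in DMSO and 63.3 to 67.8 CPM in sorafenib in wild-type cells, and to 40.1 to 42.5 CPM and 70.8 to 85.8 CPM in ARID1B-KO cells. The 4 endothelial markers summed to 1.16 to 1.95 CPM and 2.91 to 4.14 CPM in wild-type cells, and to 2.93 to 6.70 CPM and 7.01 to 10.7 CPM in ARID1B-KO cells. The mesenchymal and endothelial sums were thus higher with sorafenib within each genotype, without overlap. CFTR, COL1A2, KDR, PTPRC and HBB were at 0 in every library. In bulk RNA, fewer cells of a type and less RNA per cell cannot be told apart. The part of these marker shifts in the results below was not tested. Leaving the mitochondrial genes and ALB out of the fit, an alternative chosen after seeing the data, changed no call among the 6 genes. That fit keeps all the other markers and alters little beyond the scaling, so it does not test the marker shifts.

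For 3 of the members the promoter window of the reference ends 1 base before the start of the gene's main transcript, that with the highest mean TPM here. Only these windows are shown. ACSL4 and AIFM2 were the members higher in ARID1B-KO cells in DMSO, and LPCAT3 was the driver that rose with sorafenib. The windows of GPX4 and NCOA4 do not end at the start of their main transcript. No window was available for SLC7A11, so nothing is said here of its promoter. Each window shown is the 250 bases upstream of the start, from RefSeq on GRCh38.p14, written 5′ to 3′ along the gene. Capitals mark matches, on either strand, to an antioxidant response element core (TGACNNNGC, the motif bound by NRF2), to a GC box (GGGCGG) and to a CCAAT box.
ACSL4, chrX:109733258-109733507, minus strand: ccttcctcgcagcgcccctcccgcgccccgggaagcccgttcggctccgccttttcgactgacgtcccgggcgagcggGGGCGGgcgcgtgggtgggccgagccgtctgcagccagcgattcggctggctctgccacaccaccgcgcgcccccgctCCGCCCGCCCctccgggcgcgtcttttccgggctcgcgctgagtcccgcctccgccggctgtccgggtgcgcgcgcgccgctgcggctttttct
AIFM2, chr10:70132826-70133075, minus strand: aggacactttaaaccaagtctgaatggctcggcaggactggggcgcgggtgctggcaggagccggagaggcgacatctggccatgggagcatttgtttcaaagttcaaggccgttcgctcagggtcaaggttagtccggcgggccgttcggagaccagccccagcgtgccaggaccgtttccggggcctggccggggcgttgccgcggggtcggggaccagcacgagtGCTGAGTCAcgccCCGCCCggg
LPCAT3, chr12:7018477-7018726, minus strand: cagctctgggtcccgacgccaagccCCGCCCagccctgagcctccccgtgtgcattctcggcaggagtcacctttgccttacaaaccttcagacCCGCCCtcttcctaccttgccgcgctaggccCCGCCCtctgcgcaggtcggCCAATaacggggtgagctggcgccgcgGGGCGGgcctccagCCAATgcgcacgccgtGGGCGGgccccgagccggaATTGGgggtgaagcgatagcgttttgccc

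The antioxidant response element core occurred in 1 of the 3 windows, that of AIFM2, where it lies on the strand opposite to the gene and begins 22 bases before the start. It was present in 10.9% of all 35116 promoter windows of the same length. GC boxes numbered 3 in ACSL4, 1 in AIFM2 and 5 in LPCAT3, and 42.6% of all windows held at least 1. The 3 CCAAT boxes were all in LPCAT3, against 32% of all windows with a match. The amino acid response element that ATF4 binds (TGATGNAA), present in 3.14% of windows, had no match in the 3 sequences. A match is a run of letters and was not tested as a bound site.

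Levels were first compared between genes on the TPM scale, which divides by transcript length. In wild-type cells in DMSO, ACSL4 was highest at 268.6 ± 10.1 TPM (SD, n = 3), followed by NCOA4 at 246.7 ± 8.34 TPM and GPX4 at 174.0 ± 18.4 TPM. LPCAT3 stood at 43.4 ± 9.06 TPM, and SLC7A11 (20.5 ± 2.25 TPM) and AIFM2 (19.1 ± 0.77 TPM) were lowest. Libraries of the last 2 genes overlapped, whereas each other neighbour in this order was separated in every library of the group. With sorafenib the order changed at both ends. GPX4 led in wild-type cells at 224.0 ± 20.6 TPM, ahead of ACSL4 at 175.3 ± 14.3 TPM and NCOA4 at 155.7 ± 12.8 TPM, whose libraries overlapped. SLC7A11 fell to the bottom at 4.90 ± 0.77 TPM, below AIFM2 at 19.4 ± 1.30 TPM in every library. ARID1B-KO cells in DMSO had ACSL4 far above the rest at 438.8 ± 17.8 TPM, and NCOA4 next at 273.5 ± 16.4 TPM. In ARID1B-KO cells in sorafenib, GPX4 (221.1 ± 35.5 TPM), ACSL4 (208.2 ± 32.4 TPM) and NCOA4 (171.7 ± 26.9 TPM) overlapped, with LPCAT3 at 73.1 ± 17.6 TPM, AIFM2 at 19.1 ± 2.48 TPM and SLC7A11 at 4.27 ± 0.60 TPM.

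**Figure D1:**
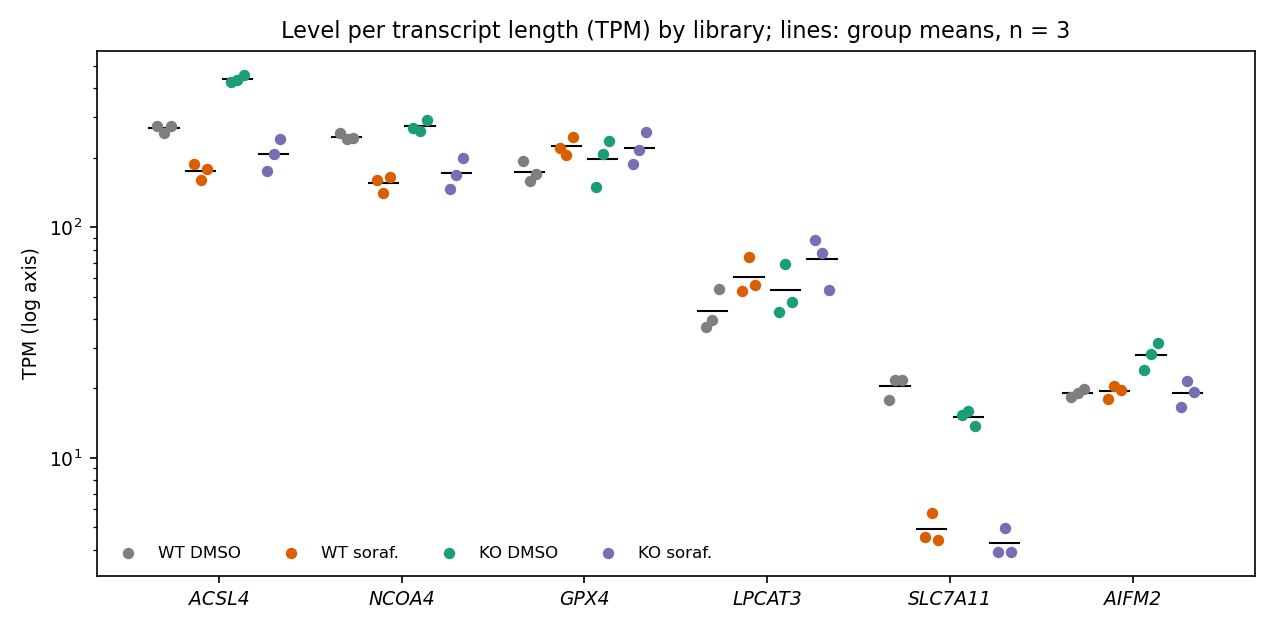
TPM of the 6 genes in each library (points) with group means (lines, n = 3), on a log axis. SLC7A11 and AIFM2 lie together near 20 TPM in wild-type cells in DMSO and separate with sorafenib, where SLC7A11 lies between 3.92 and 5.78 TPM.

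Among the protective genes, SLC7A11 changed most. It stood at 78.9, 91.3 and 85.2 CPM in wild-type cells in DMSO and at 20.8, 25.6 and 18.9 CPM in sorafenib. The ARID1B-KO libraries held 65.7, 61.7 and 50.7 CPM in DMSO and 17.8, 20.8 and 15.9 CPM in sorafenib. The sorafenib libraries of both genotypes lay below every DMSO library, and in DMSO the ARID1B-KO libraries lay below the wild-type ones. Sorafenib lowered SLC7A11 3.91-fold in wild-type cells (log2 fold change -1.97 ± 0.14, adjusted p = 3.81e-07) and 3.27-fold in ARID1B-KO cells (-1.71 ± 0.14, adjusted p = 8.54e-07). Of all genes tested, 2.06% had a larger absolute log2 change in wild-type cells and 4.12% in ARID1B-KO cells. Knockout lowered it 1.43-fold in DMSO (-0.52 ± 0.13, adjusted p = 0.00982). In sorafenib the genotypes overlapped, with a difference of -0.26 and a 95% interval from -0.56 to 0.04 (adjusted p = 0.181). The change with treatment did not differ detectably between genotypes (interaction 0.26, interval -0.15 to 0.67, adjusted p = 0.56). An antisense gene, SLC7A11-AS1, overlaps SLC7A11 on chromosome 4 and was not analysed here. No source used here says whether the counting used strand, so its reads cannot be told apart from those of SLC7A11.

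GPX4 moved less than SLC7A11 and in the other direction. Its levels in wild-type cells were 170.4, 133.6 and 134.1 CPM in DMSO and 191.3, 181.0 and 204.5 CPM in sorafenib. In ARID1B-KO cells they were 128.9, 159.9 and 189.6 CPM in DMSO and 183.5, 191.9 and 219.2 CPM in sorafenib. The groups did not overlap in wild-type cells and did overlap in ARID1B-KO cells, where the DMSO libraries were widely spread. The rise in wild-type cells was 1.32-fold (0.40 ± 0.14, adjusted p = 0.0399), and the corresponding value in ARID1B-KO cells was 0.31 ± 0.14 (adjusted p = 0.0793). A larger absolute log2 change was seen in 38.5% of all genes tested in wild-type cells and in 56.25% in ARID1B-KO cells. The wild-type call was lost in 8 of 22 alternative fits, among them total counts in place of TMM and the removal of wild-type DMSO library 2 or 3, of any 1 wild-type sorafenib library, or of ARID1B-KO sorafenib library 2 (adjusted p from 0.0127 to 0.138 over the alternatives). In ARID1B-KO cells the value passed with DESeq2 and without DMSO library 3 (0.0142 to 0.331). Between genotypes GPX4 differed by 0.13 in DMSO (interval -0.17 to 0.43, adjusted p = 0.529) and by 0.04 in sorafenib (-0.25 to 0.34, adjusted p = 0.849). Among the ARID1B-KO DMSO libraries, the one with the lowest GPX4 (128.9 CPM) had 12.2% mitochondrial counts and the one with the highest (189.6 CPM) had 6.75%. The part of that share in the GPX4 values was not tested.

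AIFM2 passed the test with sorafenib in ARID1B-KO cells and not in wild-type cells, and the interaction was called by DESeq2 but not by edgeR. In wild-type cells it stood at 60.7, 59.1 and 60.3 CPM in DMSO and at 58.6, 59.8 and 63.1 CPM in sorafenib. ARID1B-KO libraries stood at 72.1, 71.1 and 79.6 CPM in DMSO and at 48.4, 57.6 and 56.2 CPM in sorafenib. In CPM the wild-type groups overlapped, and the 2 ARID1B-KO groups lay above and below all 6 wild-type libraries. In TPM the ARID1B-KO sorafenib libraries (16.5, 21.5 and 19.4 TPM) overlapped the wild-type sorafenib ones (18.0, 20.6 and 19.6 TPM). The log2 change with sorafenib was 0.01 in wild-type cells (interval -0.16 to 0.19, adjusted p = 0.932). In ARID1B-KO cells AIFM2 fell 1.37-fold (-0.46 ± 0.08, adjusted p = 0.000537). Knockout raised it 1.24-fold in DMSO (0.31 ± 0.08, adjusted p = 0.0134), a call lost with total counts and without wild-type DMSO library 2 or ARID1B-KO DMSO library 3 (0.00172 to 0.0554 over the alternatives). In sorafenib the genotypes did not overlap in CPM, but the difference of -0.16 (interval -0.34 to 0.01) did not pass (adjusted p = 0.16). That difference ranged from -0.21 to -0.02 over the alternatives. The interaction was -0.47 ± 0.11, with adjusted p = 0.0699 in edgeR and 0.00533 in DESeq2.

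Among the genes that promote ferroptosis, ACSL4 fell with sorafenib in both genotypes and rose with knockout in DMSO. It stood at 651.1, 581.3 and 605.9 CPM in wild-type cells in DMSO and at 446.6, 397.0 and 414.6 CPM in sorafenib. In ARID1B-KO cells it stood at 1021, 897.2 and 933.3 CPM in DMSO and at 433.1, 469.9 and 498.6 CPM in sorafenib. Neither treatment contrast overlapped, and ARID1B-KO cells in DMSO lay above every other library, whereas the genotypes overlapped in sorafenib. Sorafenib lowered ACSL4 1.461-fold in wild-type cells (-0.55 ± 0.10, adjusted p = 0.000814) and 2.04-fold in ARID1B-KO cells (-1.02 ± 0.10, adjusted p = 3.77e-06). Knockout raised it 1.55-fold in DMSO (0.63 ± 0.10, adjusted p = 0.000424), and in sorafenib the difference was 0.16 (interval -0.05 to 0.37, adjusted p = 0.265). The interaction was -0.48 ± 0.14, with adjusted p = 0.116 in edgeR and 0.00305 in DESeq2.

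LPCAT3 rose with sorafenib. It stood at 82.7, 90.5 and 99.3 CPM in wild-type cells in DMSO and at 120.0, 143.2 and 121.5 CPM in sorafenib. Levels in ARID1B-KO cells were 95.6, 104.0 and 73.7 CPM in DMSO and 181.6, 155.2 and 115.0 CPM in sorafenib. In CPM every sorafenib library lay above every DMSO library of either genotype. In TPM the treatments overlapped within both genotypes. Wild-type DMSO library 3 was at 53.7 TPM and sorafenib library 1 at 52.7 TPM. ARID1B-KO DMSO library 2 was at 69.3 TPM and sorafenib library 3 at 53.6 TPM. The rise was 1.41-fold in wild-type cells (0.50 ± 0.16, adjusted p = 0.0299) and 1.65-fold in ARID1B-KO cells (0.73 ± 0.16, adjusted p = 0.00281). Neither call held with an offset for effective transcript length (8.26e-05 to 0.0764 over the alternatives in ARID1B-KO cells). The wild-type call was also lost without wild-type DMSO library 1 or 2 or wild-type sorafenib library 2 or 3 (0.00338 to 0.124 over the alternatives). The genotypes overlapped in both treatments, with a difference of 0.00 in DMSO (interval -0.35 to 0.36) and of 0.23 in sorafenib (-0.12 to 0.58). The interaction was 0.23 (-0.27 to 0.72, adjusted p = 0.694).

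NCOA4 fell with sorafenib in both genotypes. It stood at 608.8, 561.1 and 546.6 CPM in wild-type cells in DMSO and at 379.0, 348.1 and 380.6 CPM in sorafenib. In ARID1B-KO cells it stood at 626.1, 552.1 and 588.9 CPM in DMSO and at 361.9, 382.6 and 412.9 CPM in sorafenib. All 6 sorafenib libraries lay below all 6 DMSO libraries, and the genotypes overlapped within each treatment. The change was -0.63 ± 0.09 in wild-type cells (adjusted p = 0.000192) and -0.61 ± 0.09 in ARID1B-KO cells (adjusted p = 0.00016), with an interaction of 0.02 (interval -0.26 to 0.30, adjusted p = 0.961). Between genotypes the difference was 0.04 in DMSO (-0.16 to 0.24) and 0.06 in sorafenib (-0.14 to 0.26). The 4 processed pseudogenes NCOA4P1 to NCOA4P4 had 0 counts in all 12 libraries.

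**Figure D2:**
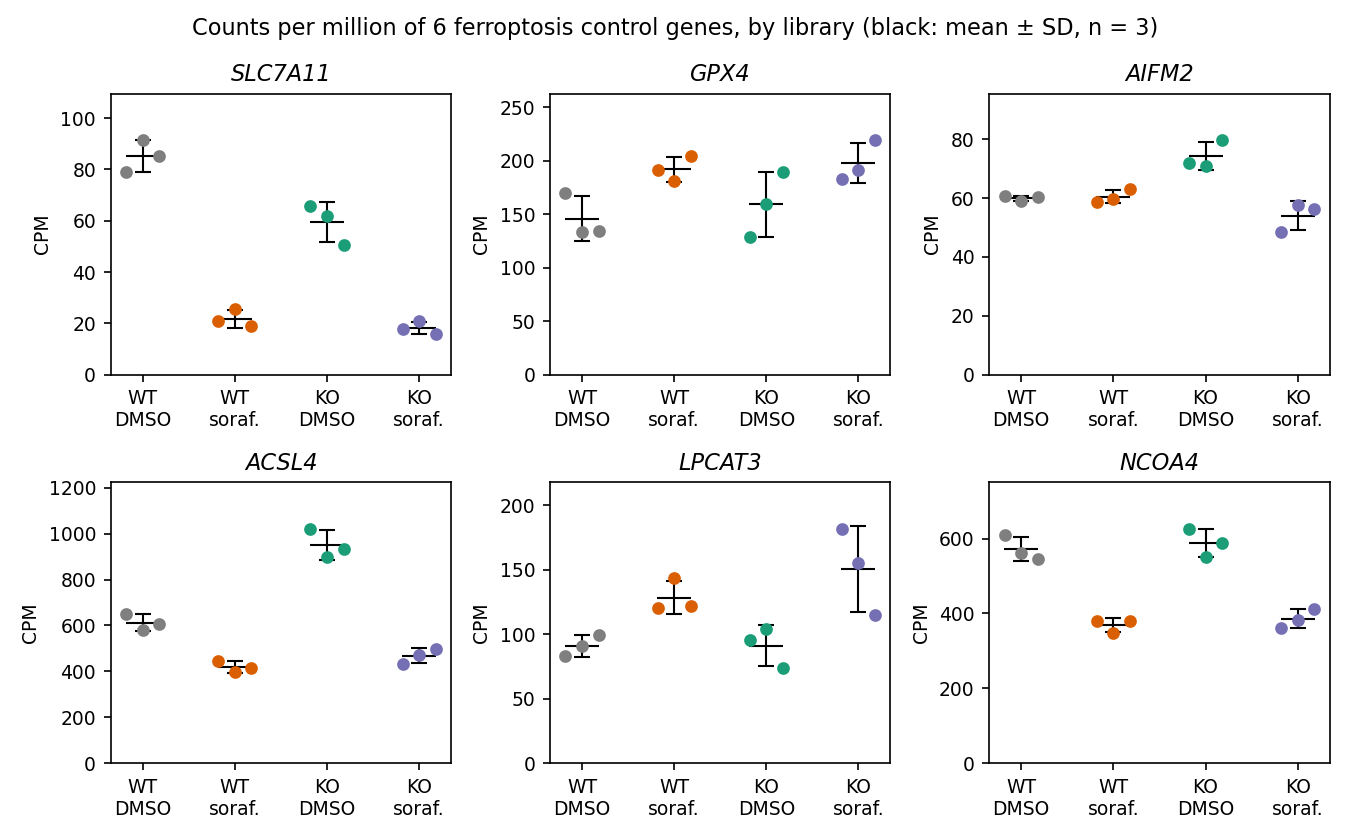
CPM of each gene in each library (points), by group, with the mean and SD in black (n = 3). ARID1B-KO cells in DMSO stand above all other libraries for ACSL4 and AIFM2, and all sorafenib libraries stand below all DMSO libraries for SLC7A11 and NCOA4.

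Counted together, 5 of the 6 genes passed the test with sorafenib in wild-type cells, GPX4 and LPCAT3 higher and SLC7A11, ACSL4 and NCOA4 lower. Of all 12821 genes tested, 35.4% passed in that comparison, 17.5% higher and 18% lower. The count was 3, with GPX4 and LPCAT3 lost, under the length offset and without wild-type DMSO library 2, wild-type sorafenib library 2 or wild-type sorafenib library 3. In ARID1B-KO cells 5 of 6 passed, LPCAT3 higher and SLC7A11, ACSL4, AIFM2 and NCOA4 lower, against 46.7% of all genes, 23% higher and 23.7% lower. Among all genes called in ARID1B-KO cells 49.3% were higher, or 38.3% when total counts replaced TMM, and the members' directions were the same under both. Knockout in DMSO changed 3 of 6, ACSL4 and AIFM2 higher and SLC7A11 lower, where 27.8% of all genes passed, 14.3% higher and 13.5% lower. Knockout in sorafenib changed 0 of 6 by edgeR, 0 by DESeq2 and 0 at an unadjusted p under 0.05. Of all genes 27% passed by edgeR, 13.2% higher and 13.8% lower, and 38.6% had an unadjusted p under 0.05. The 2 sorafenib comparisons are within genotype and share no library, whereas each knockout comparison shares its libraries with them.

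The test of the interaction asks whether the response to sorafenib differed between genotypes. It called 0 of 6 members in edgeR, with 2 (ACSL4 and AIFM2) at an unadjusted p under 0.05, as for 15.3% of all genes, and the same 2 called by DESeq2. Over all genes it called 0.835% in edgeR, 0.374% with a more positive and 0.46% with a more negative change in ARID1B-KO cells. That background was itself unstable, with 107 genes in edgeR and 584 in DESeq2.

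**Figure D3:**
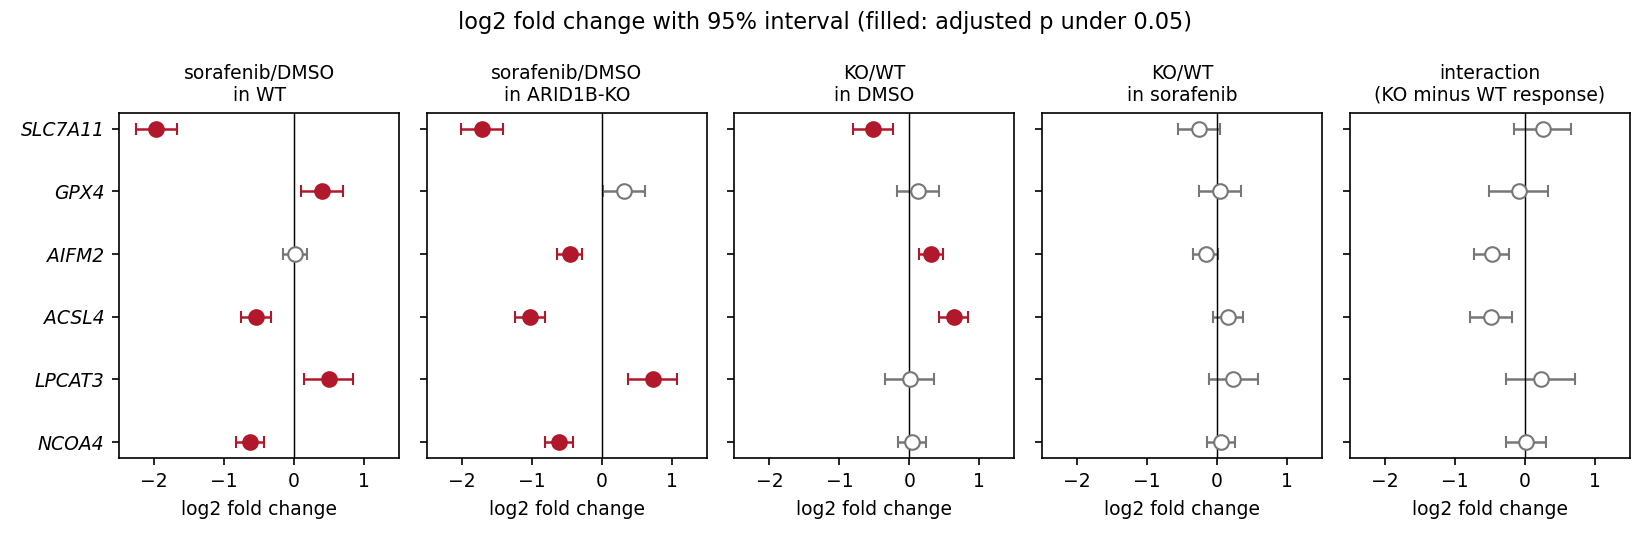
log2 fold change of each gene with its 95% interval in the 5 comparisons, filled where the adjusted p was under 0.05. The intervals of ACSL4 and AIFM2 in the interaction panel lie below 0 although neither passed after adjustment over all genes in edgeR.

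Transcripts were described where they held at least 10% of a gene's mean TPM in a group. They are Salmon estimates, and no test was made on them. SLC7A11, NCOA4 and ACSL4 were each carried by 1 transcript, at 98.1% to 100% (SLC7A11-201), 97.6% to 99.8% (NCOA4-207) and 90.4% to 94.4% (ACSL4-204) of the gene's TPM in all libraries. For GPX4 the main transcript was GPX4-210, at 82.0% to 86.6% in wild-type and 90.3% to 93.0% in ARID1B-KO libraries. The shorter protein-coding GPX4-209 took the opposite course. Its name and type come from an annotation that holds another version of this transcript than the files do, so both may differ from the version counted. Its share was 10.7%, 9.65% and 12.4% in wild-type cells in DMSO and 9.46%, 12.7% and 12.3% in sorafenib. In ARID1B-KO cells it was 4.03%, 4.70% and 4.40% in DMSO and 2.85%, 2.22% and 3.14% in sorafenib. All 6 ARID1B-KO libraries thus lay below all 6 wild-type libraries, a feature singled out after its values were seen, while the GPX4 total did not differ detectably between genotypes.

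AIFM2 and LPCAT3 had a second transcript with no defined coding sequence. AIFM2-203 took 35.7% to 49.6% of the AIFM2 TPM, with groups overlapping, beside the coding AIFM2-201 at 35.1% to 63.8%. Its share exceeded that of AIFM2-201 in wild-type sorafenib library 2 (45.9% against 35.1%) and ARID1B-KO sorafenib library 2 (49.6% against 48.8%). LPCAT3-202 was at 0% in 6 libraries and reached 36.0% in ARID1B-KO DMSO library 2, so the coding LPCAT3-201 ranged from 62.2% to 97.2%. Being short (802 bases against 2235 for LPCAT3-201), LPCAT3-202 changes the mean length by which LPCAT3 is divided whenever it is assigned reads. The LPCAT3 calls in both genotypes held when only protein-coding transcripts were summed.

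**Figure D4:**
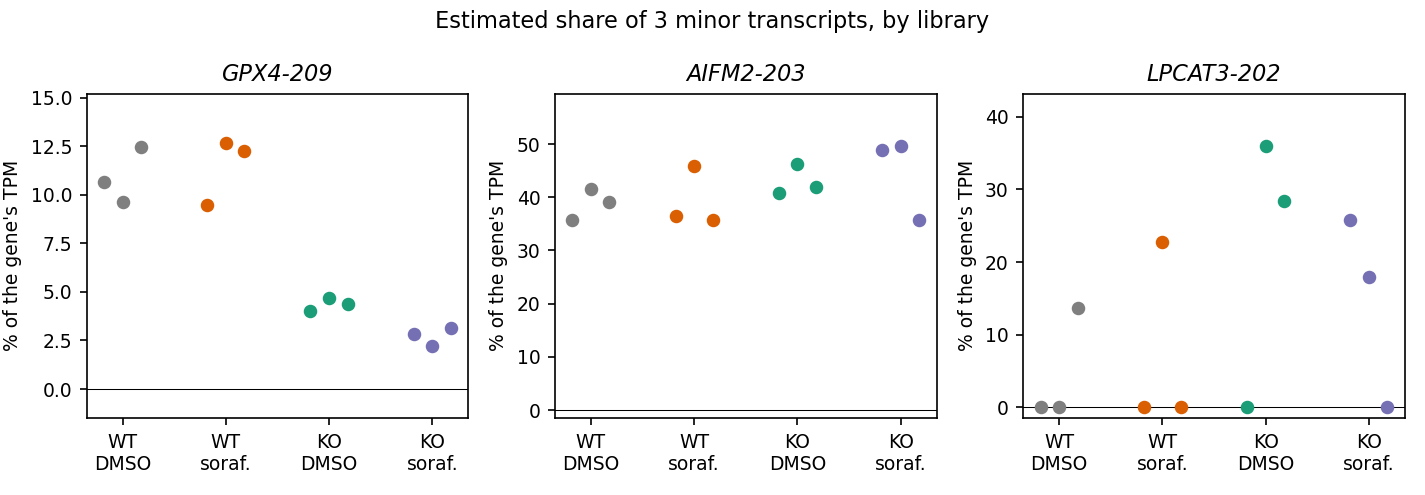
Share of the gene's TPM assigned to 3 minor transcripts in each library (points), by group. GPX4-209 lies between 9.46% and 12.7% in wild-type and between 2.22% and 4.70% in ARID1B-KO libraries, and LPCAT3-202 is at 0% in some libraries of every group.

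The genes most like each member in profile were taken by Pearson's r of log2 CPM over the 12 libraries, among all 12821 genes. Since the 12 libraries share 4 group means, high values are common, and r is a description only. FST (r = 0.99), STC2 and CCR6 were closest to SLC7A11, and PHPT1 (r = 0.964), MALSU1 and C1orf131 to GPX4. For AIFM2 they were SLC25A11 (r = 0.932), TGIF2 and SP4, the lowest values of the 6 sets. HSPH1 (r = 0.988), ADO and NUDT4 were closest to ACSL4, CTSA (r = 0.992), NUCB1 and PLPP3 to LPCAT3, and CHORDC1 (r = 0.99), GK and ATIC to NCOA4.

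The surrounding pathway was described through 7 lists holding 118 other genes, of which 101 were tested. With sorafenib 29 rose and 30 fell in wild-type cells, and 29 rose and 31 fell in ARID1B-KO cells, which is 58.4% and 59.4% of those tested against the backgrounds of 35.4% and 46.7%. The lists were chosen with earlier results of these data known, so these shares are a description and not a test. The median log2 change of the 101 was 0.05 in wild-type cells, and that of all genes was -0.01. Knockout in DMSO raised 24 and lowered 7 (30.7% against 27.8%), and knockout in sorafenib raised 26 and lowered 17 (42.6% against 27%). The interaction called 3 of 101 (2.97%, against 0.835% of all genes).

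Cystine uptake and glutathione synthesis was the list with most falls. With sorafenib 2 of 14 tested genes rose and 9 fell in wild-type cells (median -0.43), and 3 rose and 9 fell in ARID1B-KO cells (median -0.48). That is 78.6% and 85.7% of those tested, against 35.4% and 46.7% of all genes. The wild-type total of 11 was 7 without sorafenib library 3. SLC3A2, the heavy chain that pairs with SLC7A11 at the cell surface, fell in wild-type cells (-0.54 ± 0.14, adjusted p = 0.0108), a call lost with the length offset and without wild-type sorafenib library 3, and was at -0.16 ± 0.14 in ARID1B-KO cells (adjusted p = 0.388). The glutamine transporters SLC1A5 (-1.49 ± 0.18, adjusted p = 4.82e-05) and SLC38A1 (-1.21 ± 0.12, adjusted p = 8.01e-06) fell in wild-type cells by more than SLC3A2 did. In ARID1B-KO cells their changes were -1.95 and -1.499. GCLC, the catalytic subunit of glutamate-cysteine ligase, fell by 0.32 and 0.35 on the log2 scale in wild-type and ARID1B-KO cells, the former lost with the length offset. Its modifier subunit GCLM stood at 42.1, 37.7 and 41.1 CPM in wild-type cells in DMSO and at 27.0, 24.6 and 28.2 CPM in sorafenib. In ARID1B-KO cells GCLM stood at 64.4, 67.9 and 73.8 CPM in DMSO and at 37.9, 40.2 and 42.9 CPM in sorafenib, and the treated knockout libraries overlapped the untreated wild-type ones. The changes in GCLM were -0.60 ± 0.09 and -0.77 ± 0.09 with sorafenib and 0.77 ± 0.08 with knockout in DMSO (adjusted p = 0.000161, 1.24e-05 and 2.86e-05). TXNRD1, a thioredoxin reductase, changed by -0.80, -0.73 and 0.47 in the same comparisons. With knockout in DMSO 6 genes of the list passed, or 42.9% against 27.8% of all genes, and all 6 were higher. SLC7A11, which the list leaves out, was lower. CHAC1, a glutathione-degrading enzyme, had 0 to 3 counts and was not tested.

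The list of lipid peroxide defence outside GPX4 and AIFM2 was mixed, with 4 of 18 tested genes higher and 6 lower in wild-type cells and 7 higher and 6 lower in ARID1B-KO cells. The totals are 55.6% and 72.2% of those tested, against 35.4% and 46.7% of all genes. The glutathione S-transferase GSTA1 rose most. It stood at 36.7, 30.3 and 27.8 CPM in wild-type cells in DMSO, 142.2, 118.7 and 153.7 CPM in sorafenib, 246.9, 231.6 and 258.6 CPM in ARID1B-KO cells in DMSO and 576.6, 699.7 and 737.0 CPM in ARID1B-KO cells in sorafenib. The 4 groups did not overlap, with changes of 2.13 ± 0.14 and 1.45 ± 0.13 with sorafenib and 2.96 ± 0.14 with knockout in DMSO (adjusted p = 2.19e-07, 2.41e-06 and 2e-08). GSTA1 has near-identical paralogs, so its share of their reads is uncertain. VKORC1L1, which reduces vitamin K, fell by 0.57 in wild-type and by 0.71 in ARID1B-KO cells. SPR, which completes the tetrahydrobiopterin synthesis that GCH1 starts, fell by 0.25, lost with the length offset, and by 0.80. DHODH, which reduces coenzyme Q in mitochondria, was at -0.17 ± 0.13 and -0.32 ± 0.13 with sorafenib (adjusted p = 0.325 and 0.0614). GCH1 was at 0.17 ± 0.10 in wild-type cells (adjusted p = 0.227) and 0.35 ± 0.10 in ARID1B-KO cells (adjusted p = 0.0136), and the latter was lost in 4 of 22 alternatives, among them summing only protein-coding transcripts.

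Selenoprotein synthesis supplies GPX4 with its selenocysteine. Of 9 tested genes 1 rose and 4 fell with sorafenib in wild-type cells, and 2 rose and 4 fell in ARID1B-KO cells. As shares these are 55.6% and 66.7%, against 35.4% and 46.7% of all genes. The totals of 5 and 6 were each 3 without 1 library, DMSO library 2 or sorafenib library 2 in wild-type cells and DMSO library 2 in ARID1B-KO cells. LRP8, a receptor through which cells take up selenoprotein P, fell by 1.79 ± 0.12 in wild-type (adjusted p = 2.39e-07) and by 2.12 ± 0.12 in ARID1B-KO cells (adjusted p = 5.64e-08). SELENOP, the selenium carrier that hepatocytes secrete, fell by 0.97 and 0.45, the latter lost in 3 of 22 alternatives. SEPHS2, which makes the selenium donor, rose by 0.60 and 0.43 in the same comparisons. SEPSECS, which completes the selenocysteine transfer RNA, was at -0.04 in wild-type cells (adjusted p = 0.843) and rose by 0.41 in ARID1B-KO cells (adjusted p = 0.0167, lost with total counts and without ARID1B-KO DMSO library 2).

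Around ACSL4 and LPCAT3, the list of polyunsaturated phospholipid and ether lipid synthesis had 6 of 14 tested genes higher and 3 lower with sorafenib in both genotypes. The share was 64.3% in each, against 35.4% of all genes in wild-type and 46.7% in ARID1B-KO cells. ACSL3, which activates monounsaturated fatty acids, fell by 1.10 ± 0.14 and 1.15 ± 0.14 (adjusted p = 5.52e-05 and 2.4e-05). The long-chain acyl-CoA synthetase ACSL1 rose by 0.90 ± 0.11 and 0.57 ± 0.11 (adjusted p = 3.92e-05 and 0.000881). AGPS, needed for ether lipids, fell by 0.91 and 0.98, while GNPAT, the preceding enzyme of the same peroxisomal pathway, rose by 0.42 and 0.70. SCD, the stearoyl-CoA desaturase, rose by 0.57 in wild-type cells (adjusted p = 0.0315), a call lost in 6 of 22 alternatives, and was at 0.30 in ARID1B-KO cells (adjusted p = 0.217). The desaturases FADS1 and FADS2 were at -0.02 and 0.30 in wild-type cells (adjusted p = 0.945 and 0.258). In ARID1B-KO cells FADS1 fell by 0.41 (adjusted p = 0.0232, lost in 6 of 22 alternatives) and FADS2 was at 0.13 (adjusted p = 0.607). MBOAT1 and MBOAT2, which compete with polyunsaturated acylation, had at most 2 and 6 counts and were not tested. Of the 12 genes listed under lipid peroxidation enzymes, 3 were expressed enough to test. With sorafenib 1 of these 3 passed in each genotype, or 33.3%, against 35.4% of all genes in wild-type and 46.7% in ARID1B-KO cells. PEBP1, a partner of 15-lipoxygenase, rose by 0.86 and 1.01, whereas the oxidoreductases POR and CYB5R1 did not pass with sorafenib in either genotype. The 6 lipoxygenase genes, PTGS2, NOX1 and NOX4 had 0 to 5 counts per library.

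The iron list around NCOA4 had 11 of 23 tested genes higher and 3 lower in wild-type cells and 8 higher and 3 lower in ARID1B-KO cells. That is 60.9% and 47.8% of those tested, against 35.4% and 46.7% of all genes, so the ARID1B-KO share was near the background. The wild-type total of 14 was 7 without DMSO library 2, 8 without DMSO library 3 or sorafenib library 1, and 6 without sorafenib library 3. TFRC, the transferrin receptor, fell by 0.72 ± 0.16 in wild-type cells (adjusted p = 0.00355) and was at -0.38 ± 0.16 in ARID1B-KO cells (adjusted p = 0.0632). FTH1, the ferritin heavy chain that NCOA4 binds, rose by 0.47 and 0.46 (adjusted p = 0.0152 and 0.0132). It did not pass in either genotype with total counts, and the wild-type call was lost in 5 of 22 alternatives. FTH1 also shares sequence with processed pseudogenes. FTL, the light chain, was at 0.12 and 0.06 (adjusted p = 0.628 and 0.786). SLC40A1, the iron exporter ferroportin, stood at 13.9, 11.8 and 14.2 CPM in wild-type cells in DMSO, 19.7, 15.99 and 19.5 CPM in sorafenib, 7.23, 4.90 and 6.11 CPM in ARID1B-KO cells in DMSO and 14.5, 13.9 and 11.95 CPM in ARID1B-KO cells in sorafenib. It rose by 0.47 ± 0.15 in wild-type cells (adjusted p = 0.0237, lost in 4 of 22 alternatives) and by 1.15 ± 0.15 in ARID1B-KO cells (adjusted p = 5.49e-05), and knockout lowered it in DMSO (-1.13 ± 0.15, adjusted p = 0.000144). TF, transferrin, which is also one of the hepatocyte markers, rose by 1.07 and 1.16. HMOX1, the haem oxygenase that frees iron, stood at 21.7, 19.6 and 19.7 CPM in wild-type cells in DMSO and at 53.6, 50.2 and 55.2 CPM in sorafenib. In ARID1B-KO cells HMOX1 stood at 44.2, 49.4 and 52.1 CPM in DMSO and at 71.7, 84.8 and 75.5 CPM in sorafenib. It rose with sorafenib by 1.38 ± 0.09 in wild-type and by 0.67 ± 0.09 in ARID1B-KO cells (adjusted p = 2.71e-07 and 5.21e-05) and with knockout in DMSO by 1.25 ± 0.09 (adjusted p = 8.82e-07).

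Among 20 tested regulators, 4 rose and 5 fell with sorafenib in wild-type cells, and 2 rose and 6 fell in ARID1B-KO cells. These are 45% and 40% of those tested, against 35.4% and 46.7% of all genes, so the ARID1B-KO share was below the background. The wild-type total of 9 was 5 without sorafenib library 2. The ARID1B-KO total of 8 was 4 without DMSO library 2 and 5 without DMSO library 3, sorafenib library 1 or sorafenib library 2. NFE2L2 (NRF2), an activator of SLC7A11, GCLM, TXNRD1, HMOX1 and AIFM2, stood at 214.8, 183.3 and 182.5 CPM in wild-type cells in DMSO and at 122.8, 105.7 and 130.8 CPM in sorafenib. In ARID1B-KO cells it stood at 336.0, 311.6 and 346.6 CPM in DMSO and at 204.8, 244.1 and 236.6 CPM in sorafenib. Its transcript fell with sorafenib by 0.69 ± 0.11 and 0.54 ± 0.11 (adjusted p = 0.000284 and 0.00122) and rose with knockout by 0.78 ± 0.11 in DMSO and 0.93 ± 0.11 in sorafenib (adjusted p = 0.000179 and 4.73e-05). KEAP1, which targets NRF2 for degradation, fell by 0.21 and 0.20, calls lost in 7 and 13 of 22 alternatives. BACH1, a repressor of HMOX1, was at 0.06 and 0.03 (adjusted p = 0.684 and 0.85). ATF4, another activator of SLC7A11, was at -0.34 ± 0.13 and -0.30 ± 0.13 with sorafenib (adjusted p = 0.0556 and 0.0775). ATF3, a repressor of SLC7A11, stood at 3.70 to 4.42 CPM in wild-type cells in DMSO and 0.72 to 1.43 CPM in ARID1B-KO cells in DMSO, a fall of 1.95 ± 0.54 (adjusted p = 0.0182, lost in 5 of 22 alternatives). SAT1, a polyamine acetyltransferase whose activity promotes lipid peroxidation, stood at 150.03, 145.2 and 144.7 CPM in wild-type cells in DMSO, while the other 9 libraries lay between 49.0 and 69.98 CPM. It fell with sorafenib in wild-type cells by 1.39 ± 0.12 (adjusted p = 2.92e-06) and with knockout in DMSO by 1.24 ± 0.12 (adjusted p = 9.98e-06).

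**Figure D5:**
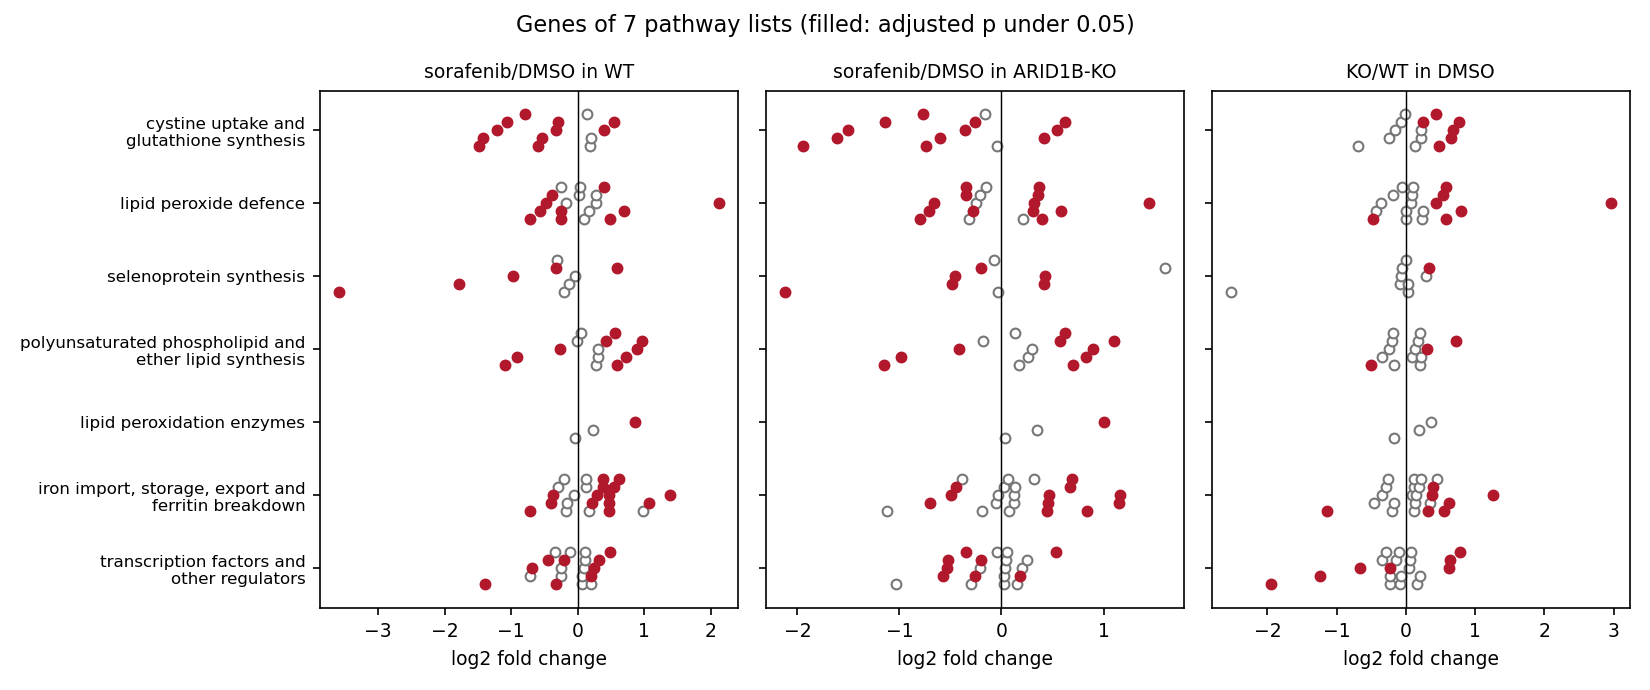
log2 fold change of every tested gene of the 7 pathway lists (points) with sorafenib in each genotype and with knockout in DMSO, filled where the adjusted p was under 0.05. In the cystine and glutathione row, 9 filled points lie below 0 in both sorafenib panels, and the 6 filled points of the knockout panel lie above it.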

How the data were processed

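Each library came as 1 Salmon table deposited by the authors, with, per the file headers, an estimated count, a length, an effective length and a TPM for each of 177456 transcripts. The submitters' processing notes name Salmon (no version), DESeq2 1.46.0 and GRCh38. As deposited, these estimated counts carry no normalization. The TPM values deposited by the authors are scaled within a library and were summed per gene only to compare genes. Transcripts were matched without version to GENCODE release 44, which named 165533 (93.3%). The other 11923 held 2.87% to 3.20% of counts and were left out. Counts were summed to genes and rounded.

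All 12 libraries entered 1 edgeR 4.0.16 quasi-likelihood fit (R 4.3.3, robust, TMM, filterByExpr), with 5 contrasts, Benjamini-Hochberg adjustment over 12821 genes and calls at an adjusted p under 0.05. Errors after ± on log2 values are standard errors from this fit, and those on TPM are SD. Intervals are 95%. The code was tested on simulated data. DESeq2 1.42.0, other scalings, no filter, a replicate block, a length offset, protein-coding transcripts, fits of 2 groups, non-robust estimation and each library left out were the alternatives. The members and lists were chosen with earlier results of these data known. The named genes are the members, ARID1B and a set of pathway genes, with the 2 strongest rises and 2 strongest falls of each list eligible. Counting error and the spread between libraries both limit precision, and depth limits mainly genes near the filter on low counts, such as ATF3. Some genes of the lists are counted but not reported here by name.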

Additional observations from a re-analysis of the deposited data

Results flagged for a closer look

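The test of the difference between genotypes singled out 3 pathway genes whose response to sorafenib was not the same in wild-type and ARID1B-KO cells. HMOX1 had an interaction of -0.71 (log2, edgeR adjusted p = 0.0306), from a rise of 1.38 in wild-type and 0.67 in ARID1B-KO cells, and was called in 8 of 21 alternative fits. SAT1 had an interaction of 1.19 (adjusted p = 0.0136), from -1.39 in wild-type and -0.21 in ARID1B-KO cells, and was called in all but 2 of 21, the length offset and the fit without wild-type sorafenib library 2. SPR had an interaction of -0.55 (adjusted p = 0.0264), from -0.25 and -0.80, and was called in 7 of 21. The values for HMOX1, SAT1 and SPR are each 1 of 101 tests among the pathway genes, and 0.835% of all genes passed this test.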

How the results depend on the processing

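Of 30 member results (6 genes in 5 comparisons), 23 kept their side of the threshold in every alternative. Of these 16 also kept their sign, and 7 that did not pass (adjusted p of 0.529 or more) changed sign in at least 1 alternative. Over 654 refits 633 were unchanged, 17 lost a call, 4 gained one and 0 reversed a called direction. The number of members called with sorafenib in wild-type cells was 3 with the length offset, and 3 to 5 when single libraries were left out. For the interaction DESeq2 called 2 members. Over all genes, the length offset lowered the calls to 2869 (sorafenib, wild type), 2190 (knockout, DMSO) and 2043 (knockout, sorafenib). The interaction count of 107 became 30 with total counts, 584 with DESeq2, 2 with the length offset, 19 with protein-coding transcripts and 5 to 138 with single libraries left out. With the replicate block it was 19. The paired check gave correlations of -0.163 to 0.184 between same-numbered libraries (1 of 18 over 0.1). Between differently numbered libraries they were -0.169 to 0.183 (2 of 36 over 0.1). Correlations taken over all genes cannot show that no pairing exists, so whether the numbers pair the libraries is not known. The replicate block changed no member's call. For GCH1, knockout in sorafenib was 0.41 and became -0.84 with protein-coding transcripts only (adjusted p = 0.465, against 0.00117 to 0.465 over its alternatives). Counts of the pathway lists were within 1.5 times of the main value in 662 of 763 recomputations. A list with 0 calls in both fits counts as within, as for several lists in the interaction, so this share overstates stability. In place of TMM, total counts moved the median of all genes by 0.02 to -0.10 on the log2 scale, most with sorafenib in ARID1B-KO cells. The cause of these shifts was not tested. Transcript levels do not give protein or lipid peroxide levels, and 3 libraries a group leave small changes undetected.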
